A study of Mus musculus with 12 samples.

Results

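Liver RNA of the early night was set against that of the later night in mice without functional cryptochromes. The early night was zeitgeber time (ZT) 14, with 2 libraries, and the later night was ZT18 and ZT22, with 2 libraries each. These are 6 of the 12 libraries of the series, which also sampled ZT02, ZT06 and ZT10, every 4 h over 1 day. All mice were C57BL/6j males aged 12 to 16 weeks with a conventional gut flora, all carried the Cry1/2 double knockout (DKO), and all were fed at night. No control genotype was analysed here, so the differences are between times within the mutant. Lights go off at ZT12 under the usual convention; the hours of light and of food access are not among the labels. The rule took every gene of the exon count table: 22618 genes, of which 17142 had enough counts to be tested. The comparison addresses which transcripts stood apart in the first hours of the feeding phase and had left that level by the later night.

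Cryptochromes repress CLOCK:BMAL1, the transcription factor pair at the head of the circadian clock, so a DKO lacks a self-sustained clock. In such animals the remaining daily cues to the liver include food, hormones and body temperature. Food intake at night raises liver protein synthesis and secretion. Nascent proteins are folded in the cytosol by HSP70 proteins and their DNAJ partners, which are transcribed under heat shock factor (HSF), and in the endoplasmic reticulum (ER) by chaperones under the unfolded protein response. Insulin, released on feeding, restrains FOXO transcription factors and with them a set of fasting genes.

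The sequences below, from called genes picked by hand, carry the motifs of those regulators upstream of the start and outside every annotated exon. They come from the RefSeq promoter windows, 250 bases before to 50 bases after each start, on GRCm38.p6 (the assembly of mm10), and are written 5′ to 3′ on the strand of the gene with the motif in capitals. In the first 3 stretches the capitals mark a 2-unit heat shock element, TTCNNGAA or GAANNTTC on either strand. The Hspa1b stretch is chr17:34959315-34959362, outside any annotated gene, with the motif 96 bases before the start. The Dnajb4 stretch is chr3:152193846-152193879, inside the annotated Dnajb4 gene but in no exon, and the other Dnajb4 window held no such motif. The Rcan1 stretch is chr16:92466249-92466296, in an intron of Rcan1, which is not on the list of HSF targets; its RefSeq start is in no GENCODE transcript, and the other Rcan1 window held no such motif.
Hspa1b (minus strand): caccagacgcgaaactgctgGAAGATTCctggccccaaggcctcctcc
Dnajb4 (minus strand): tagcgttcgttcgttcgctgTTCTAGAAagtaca
Rcan1 (minus strand): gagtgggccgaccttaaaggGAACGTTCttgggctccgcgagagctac

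For 2 genes of the unfolded protein response the capitals mark the ER stress element, a CCAAT box and a CCACG box separated by 9 bases, on either strand. Both stretches, chr15:88819500-88819558 for Creld2 and chr19:6046512-6046570 for Syvn1, lie outside annotated genes. For Lpin2, a gene that was low at ZT14, they mark the FOXO motif GTAAACA at chr17:71204496-71204542, inside Lpin2 and the overlapping Gm26561, in no exon. The other Lpin2 windows held no FOXO motif.
Creld2 (plus strand): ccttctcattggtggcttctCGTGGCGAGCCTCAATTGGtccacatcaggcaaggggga
Syvn1 (plus strand): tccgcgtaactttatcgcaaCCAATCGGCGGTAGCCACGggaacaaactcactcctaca
Lpin2 (plus strand): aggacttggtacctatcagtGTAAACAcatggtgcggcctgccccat

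These motifs are short and a match is a description only; a window was found for 229 of the 290 called genes. A 2-unit heat shock element was in 15.1% of all 32851 windows, in 12% of the windows of tested genes, in 18.1% of the 232 windows of genes higher at ZT14 and in 6.45% of the 62 windows of genes lower at ZT14. It was in 13 of the 25 windows of the HSF targets listed for this report. Among genes not printed, it was in windows of Bag3 and Hsph1 but in none of Dnajb1, all higher at ZT14. It was also in windows of Tcp11l2 and Ip6k2, which were lower. The ER stress element was in 0.119% of all windows and in 9 of 21 windows of the ER chaperone list. The windows of Dnajb9 and Ficd, both higher at ZT14, held none. The FOXO motif was in 3.65% of all windows, in 4 of the 62 windows of genes lower at ZT14 and in 1 of the 16 windows of the insulin-repressed list. An interferon element, a pair of GAAA units separated by 2 bases on either strand, was in 3.44% of all windows, in 6 of those 62 and in 13 of the 22 windows of listed interferon-stimulated genes.

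Library totals were 34715506 to 46074052 exon counts, and the 6 night libraries held 35928347 to 43840914. Levels are given in CPM, the count divided by the composition-scaled library size in megacounts. Whether the 2 libraries of a time derive from different animals is not among the labels, and the p-values therefore cover only the spread from library to library, which may be technical. In bulk RNA fewer cells of a type and less RNA per cell cannot be told apart. Both ZT14 libraries stood apart from the later night in several cell type markers. Summed lymphocyte markers were at 3.27 and 4.24 CPM at ZT14, below the 7.17 to 10.7 of the later night and the 5.39 to 9.78 of the day libraries; Cd3e was at 0 in ZT14 replicate 1. Erythroid markers were at 328 and 294 CPM at ZT14, above the 118 to 275 of the later night and inside the day range of 120 to 382. Pancreatic acinar markers were at 43.6 CPM in ZT14 replicate 2, the highest of all 12 libraries, but at 9.90 in ZT14 replicate 1, against 14.4 to 18.4 in the later night; the acinar gene Try10 was at 0 in all 6. Pericentral hepatocyte markers summed to 7869 and 7901 CPM, above the 6317 to 6594 of the later night and inside the day range of 7100 to 9852. Over these 9 genes the median log2 difference was 0.03 and none was called. Pan-hepatocyte markers (103500 and 105500 against 95840 to 108300) and Kupffer cell markers (479 and 334 against 400 to 545) overlapped. The part of these cells in the results was not tested. Reads remained at the targeted genes in every library, Cry1 at 9.04 and 9.72 CPM at ZT14 and 5.71 to 10.5 later, Cry2 at 12.4 and 15.7 against 13.2 to 17.5. The labels do not say which exons were deleted, and these reads check nothing about the deletion.

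ZT14 differed from the later night mainly by genes that were higher. The edgeR quasi-likelihood test of ZT14 minus the mean of ZT18 and ZT22, with Benjamini-Hochberg adjustment over all tested genes, called 229 genes higher (1.34% of those tested) and 61 lower (0.356%). Changes of at least 2-fold were found in 52 of the genes that rose and 27 of those that fell, and 2607 genes had an unadjusted p under 0.05. The median log2 difference was 0.68 among the genes higher at ZT14 and -0.92 among the lower ones, against 0.01 over all genes. Protein-coding genes made up 215 of the 229 and 56 of the 61. By position, 94 of the 290 called genes overlapped another tested gene, 42 of them on the same strand; whether their calls share reads was not tested. In the plot of the log2 difference against the level, most called genes lie above low counts: 209 of the 229 and 51 of the 61 had a night mean of 5 CPM or more.

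**Figure D1:**
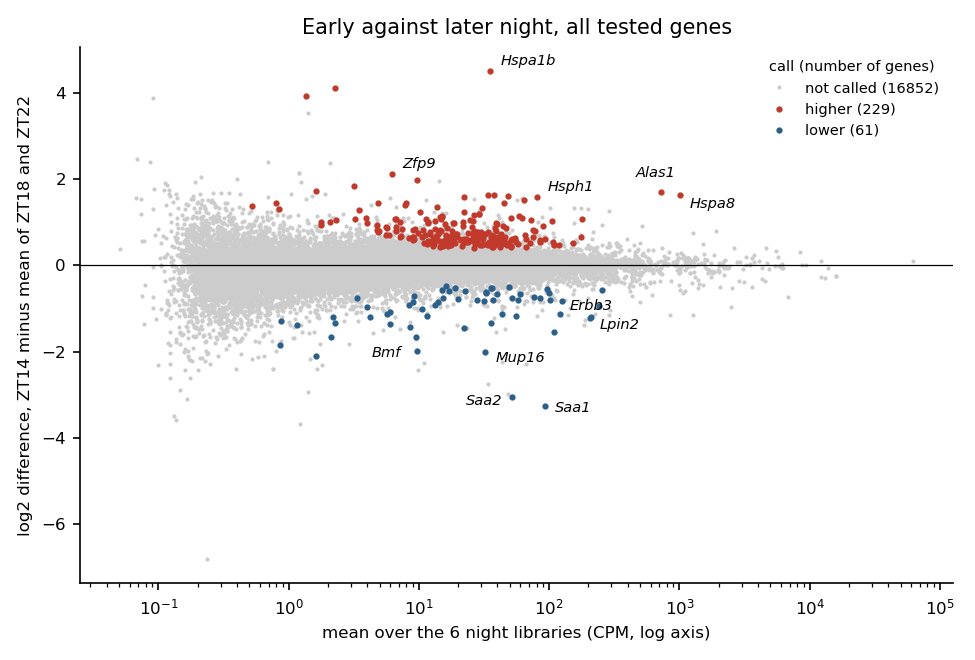
Each point is 1 of the 17142 tested genes: mean level over the 6 night libraries (CPM, log axis) against the log2 difference of ZT14 minus the mean of ZT18 and ZT22. Red points are the 229 genes called higher and blue points the 61 called lower; Hspa1b is the highest-lying labelled gene at 4.50 and Saa1 the lowest-lying at -3.26.

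These counts depended on single night libraries. Leaving 1 out leaves its time point with 1 library, which is then assumed to vary like the others. The part of this in the lower counts was not tested. Without ZT14 replicate 1 or 2 the test called 44 or 79 genes higher and 4 or 30 lower. Without ZT18 replicate 1 or 2 it called 50 or 50 higher and 7 or 7 lower, and without ZT22 replicate 1 or 2 it called 80 or 51 higher and 32 or 11 lower. Under every one of the 21 alternative fits, all 229 and all 61 genes kept their sign wherever they were fitted. The selection fixed much of this: in 227 of the 229 and all 61, both ZT14 libraries already lay beyond the 4 later ones. The call itself was kept in every fit by 23 of the 229 and 3 of the 61. The 23 were Abcf3, Alg2, Arfip2, B4galt5, Bet1l, Dnajb1, Ets2, Ficd, Gm20529, H2afx, Hspa1b, Irgq, Mgat2, Nfxl1, Palld, Rcan1, Slc20a1, a SNORD14 gene, Tmem39a, Tspyl2, Txlna, Usp36 and Zfp9. The 3 were Bmf, Erbb3 and Tcp11l2.

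The cytosolic HSP70 system held the gene with the largest rise among named genes and 7 further called members of the HSF list. Hspa1b, which encodes an inducible HSP70 (ENSMUSG00000090877, chromosome 17, 34956436 to 34959238, mm10), was at 106 and 86.5 CPM in the ZT14 libraries, 4.60 and 5.09 at ZT18, and 5.24 and 2.23 at ZT22. The ZT14 libraries lay far above all 10 others, since the day libraries ran from 2.53 to 17.1 CPM. The mean was 22.6-fold that of the later night (log2 difference 4.50 ± 0.52 SE, edgeR adjusted p = 0.00338). Hspa1a, its near-identical neighbour, was at 6.84 and 5.36 CPM against 0.182 to 0.550 (adjusted p = 0.0118), and the split of reads between these 2 genes is uncertain. Hspa8, the constitutive HSC70 and the most abundant gene of the group (chromosome 9, 40800984 to 40810087), was at 1999 and 1650.1 CPM in the ZT14 libraries, 641 and 617 at ZT18, then 660.3 and 449 at ZT22. It rose by 1.63 ± 0.21 on the log2 scale (adjusted p = 0.00526), with no overlap. The box C/D snoRNA genes inside Hspa8 on the same strand, Snord14e and both SNORD14 entries, rose with it (log2 differences of 1.45 to 1.61) and may share its reads.

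Partners of HSP70 rose with it. Bag3, a nucleotide exchange factor that links HSP70 to autophagy, was at 60.7 and 62.5 CPM against 15.5 to 22.6 in the later night (log2 difference 1.64, adjusted p = 0.0115). Hsph1, an HSP110 exchange factor, was at 141 and 144 CPM, with 58.9 and 74.0 at ZT18 and 40.9 and 28.0 at ZT22 (1.58, adjusted p = 0.0130). The J-domain co-chaperones that hand substrates to HSP70 rose too. Dnajb1 was at 37.9 and 41.0 CPM against 18.2 to 21 (1.02, adjusted p = 0.00363), Dnaja1 at 281 and 267 against 106 to 155 (1.08, 0.0118), and Dnajb4 at 50.1 and 67.1 against 27.3 to 32.7 (0.96, 0.0229). In each of these 5 genes both ZT14 libraries lay above the other 10. Leaving out 1 night library ended some of these calls: that of Hspa8 without ZT14 replicate 1 (adjusted p = 0.0593), that of Hspa1a in 4 fits (up to 0.0785), those of Bag3 (0.0752), Hsph1 (0.0855) and Dnaja1 (0.0925) in 5, and that of Dnajb4 in all 6 (0.191).

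Other members of the list were not called; 3 of them, chosen after their values were seen, are the HSP90 genes Hsp90aa1 and Hsp90ab1 and the small heat shock gene Hspb1. Hsp90aa1, an inducible HSP90, was at 382 and 418 CPM at ZT14, then 363 and 454 at ZT18 and 213 and 188 at ZT22, so ZT14 and ZT18 overlapped and ZT22 was lower than both. Hsp90ab1, the constitutive form, was at 1128 and 1006 CPM, then 1009 and 1185, then 682 and 755. Hspb1 was at 41.2 and 37.5 CPM, then 60.01 and 58.6, then 24.2 and 31.7. None of these 3 was called between ZT14 and the later night (adjusted p = 0.486, 0.316 and 0.947), and none was called between ZT18 and ZT22. Over the 22 HSF targets, 8 were called higher (1.34% of all genes were) and none lower, with a median log2 difference of 0.43; both ZT14 libraries lay above all 4 later ones in 10 members, against 14.9% of all tested genes. Without 1 night library the count of called members was 2 to 7, lowest without ZT14 replicate 1. Against ZT10, the last time before dark, 9 of the 22 were called higher and none lower, where the same fit called 0.723% of all genes higher and 0.508% lower; this comparison shares the ZT14 libraries. The list's median difference between ZT18 and ZT22, which uses no ZT14 library, was 0.38, against 0.00 over all genes.

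**Figure D2:**
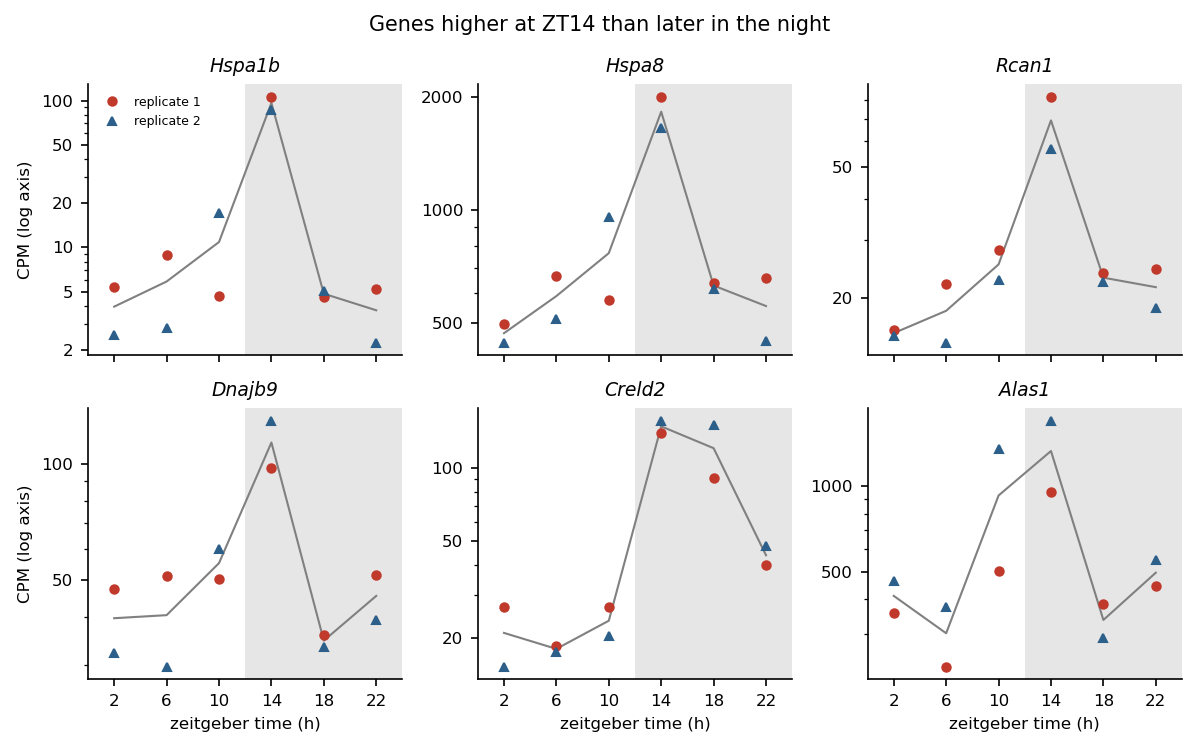
Level in CPM (log axis, a separate scale in each panel) against zeitgeber time for 6 genes called higher at ZT14; circles are replicate 1, triangles replicate 2, the line joins the 2-library means and the grey area is ZT12 to ZT24. Hspa1b, Hspa8, Rcan1 and Dnajb9 are back near their day levels at ZT18, while Creld2 is still at 91.3 and 150 CPM there and Alas1 is also high at 1356 CPM in ZT10 replicate 2.

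In the ER a few genes of the unfolded protein response were called higher at ZT14, and most of the list was not called. Dnajb9, an ER J-protein that recruits BiP (chromosome 12, 44205559 to 44210326), was at 97.5 and 129 CPM at ZT14, then 36.1 and 33.5 at ZT18 and 51.4 and 39.4 at ZT22 (log2 difference 1.51 ± 0.22 SE, edgeR adjusted p = 0.00855). Syvn1, the HRD1 ubiquitin ligase of ER-associated degradation, was at 82.9 and 99.5 CPM, then 43.5 and 59.6, then 33.7 and 32.5 (1.14 ± 0.16, adjusted p = 0.00772). Creld2, an ER-resident protein gene, was at 140 and 157 CPM at ZT14 against 91.3 and 150 at ZT18 and 39.7 and 47.7 at ZT22, so that it overlapped ZT18 (1.03 ± 0.22, adjusted p = 0.0473). Its call was lost in 12 of 21 alternatives, among them RLE size factors, limma-voom, the replicate block and every fit without 1 night library (adjusted p up to 0.351). Those of Dnajb9 and Syvn1 were lost without ZT14 replicate 2 (up to 0.0705 over all alternatives for Dnajb9, which was also lost without ZT18 replicate 2, and 0.0668 for Syvn1).

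Hspa5, which encodes BiP, the central HSP70 of the ER, was at 1447 and 1989.7 CPM at ZT14, above the 763 to 1395 of the later night, but did not pass (log2 difference 0.75 ± 0.25, adjusted p = 0.178). Manf, a secreted protein induced by ER stress, was at 227 and 247 CPM against 114 to 184 (adjusted p = 0.075). Calr, Canx, Hsp90b1 and the disulfide isomerases P4hb, Pdia3, Pdia4 and Pdia6 are abundant chaperones and folding enzymes of the ER. Chosen after their values were seen, they had log2 differences of -0.47 to 0.00. Over the list of 25 genes, 3 were called higher, where 1.34% of all genes were, and none lower, and the median was 0.09. A positive difference was seen in 16. Both ZT14 libraries lay above all 4 later ones in 7 and below them in 2 (14.9% and 12.2% of all genes). The comparison with ZT10, which shares the ZT14 libraries, called 3 of the list higher (0.723% of all genes) and none lower, with a median of 0.46. For 35 genes of the translocon, glycosylation and COPII coat none was called and the median was 0.03. Without 1 night library 0 to 2 members of the ER list were called, 0 without ZT14 replicate 2, the library with the highest acinar markers; the part of acinar RNA was not tested. Outside the list, and chosen after their values were seen, were Ficd and Bhlha15. Ficd, which inactivates BiP by AMPylation, was at 23.5 and 23.9 CPM against 9.82 to 12.1 (1.13 ± 0.11, adjusted p = 0.0018) and was called in every alternative. Bhlha15, which encodes MIST1, a transcription factor of secretory cells such as pancreatic acinar cells, was at 4.62 and 2.52 CPM against 0.0834 to 0.445. The acinar marker sums of the same ZT14 libraries were 9.90 and 43.6 CPM, and the part of acinar RNA was not tested. Its call (adjusted p = 0.0053) was lost without ZT14 replicate 1 (0.0661).

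Some genes of ribosome assembly rose slightly at ZT14, and no ribosomal protein gene was called. Of 30 ribosome biogenesis genes, 29 had a positive difference and 23 had both ZT14 libraries above all 4 later ones (14.9% of all genes had). Of the 30, 5 were called higher, where 1.34% of all genes were, and the median was 0.51. Nop14, a small-subunit processome gene, was at 20.9 and 20.1 CPM against 13.4 to 15.5 (log2 difference 0.55, edgeR adjusted p = 0.0269). Tsr1, which acts in late maturation of that subunit, was at 36.0 and 37.3 CPM against 19.4 to 23.2 (0.80, 0.0415). Nop56, of the box C/D snoRNP, was at 36.8 and 32.6 CPM against 19.2 to 22.8 (0.70, 0.0461), and Polr1b, a subunit of RNA polymerase I, at 31.0 and 30.3 against 19.8 to 21.7 (0.56, 0.0479). Every one of the 5 calls, including that of the GTPase gene Gnl3 (adjusted p = 0.0491), was lost in each fit without 1 night library, so that none of the list was called there. The other alternatives called 1 to 14 members, 1 with total counts, 12 with DESeq2 and 14 with the night libraries alone. Against ZT10 none was called, and the median was 0.14. Among 76 cytosolic ribosomal protein genes none was called and the median was 0.04. In ZT10 replicate 2 the mean of the biogenesis list, as log2 CPM centred per gene over the 12 libraries, was 0.40, above the 0.38 and 0.32 of ZT14.

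Several other regulators and enzymes rose at ZT14. Rcan1, an inhibitor of the phosphatase calcineurin (chromosome 16, 92391953 to 92470867), was at 81.7 and 56.8 CPM at ZT14, 18.6 to 24.5 in the later night and 14.6 to 27.9 by day, with no overlap (log2 difference 1.64 ± 0.18, edgeR adjusted p = 0.00331). Zfp9, a zinc finger gene, was at 9.45 and 15.7 CPM against 2.06 to 4.37 (2.11 ± 0.25, adjusted p = 0.00363). Both were called in every alternative that fitted them. Alas1, the rate-limiting enzyme of heme synthesis in liver, was at 958 and 1712 CPM against 291 to 547 (1.71 ± 0.35, adjusted p = 0.0356). It was already at 503 and 1356 CPM at ZT10, and ZT14 and ZT10 were not called different (adjusted p = 0.598). Hamp2, a hepcidin gene close in sequence to Hamp, was at 28.7 and 8.48 CPM against 2.75 to 8.29, so the replicates of ZT14 differed more than 3-fold. The calls of Alas1 and Hamp2 were lost in 8 and 7 of the alternatives, each of them with limma-voom and without ZT14 replicate 1 (adjusted p up to 0.277 and 0.296).

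Lists of stress-activated transcription factors, growth-linked enzymes and temperature-responsive genes gave 1 to 3 calls each. Jun, of the AP-1 complex, was at 24.1 and 21.2 CPM against 8.60 to 14.8 (log2 difference 1.08, edgeR adjusted p = 0.00855; 0.0824 without ZT14 replicate 1). At ZT10 it was at 21.7 and 18 CPM, overlapping ZT14 (adjusted p = 0.668). It was the only one of 18 immediate-early genes called, while Fos was at 1.77 and 0.619 CPM against 0.550 to 1.77. Ddit3, which encodes CHOP, was at 10.5 and 10.9 CPM against 4.74 to 6.09 (1.01, adjusted p = 0.0224) and was the only one of 19 genes of the ATF4 amino acid response called, with a list median of -0.18. In polyamine synthesis 2 of 9 genes rose, where 1.34% of all genes did, and the list median was 0.00: Amd1 was at 55.4 and 53.7 CPM against 30.7 to 31.9, and Srm at 51.8 and 44.5 against 29.9 to 37.6. Of 11 RNA-binding and splicing genes known to respond to temperature, 3 rose, where 1.34% of all genes did; against ZT10 none was called and the list median was 0.00. These were Rbm3, a cold-inducible RNA-binding protein gene, at 31.4 and 31.9 CPM against 19.1 to 24.5, and the splicing factors Srsf7 (36.5 and 34.1 against 18.9 to 24.6) and Srsf2 (137 and 131 against 92.1 to 101). Rbm3 was at 28.5 and 34.9 CPM at ZT10, as high as at ZT14. Cirbp, the other cold-inducible gene of that list, was at 6.57 and 8.52 CPM against 7.56 to 11.6 and was not called (adjusted p = 0.625). The calls of Ddit3, Amd1, Srm, Rbm3, Srsf7 and Srsf2 were each lost in all 6 fits without 1 night library (adjusted p up to 0.12, 0.135, 0.246, 0.131, 0.185 and 0.199).

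Other single calls were Actg1, Bnip3, Trib1 and Cdkn1a. Actg1, cytoplasmic gamma-actin, was at 150 and 105 CPM against 49.0 to 107, with ZT18 replicate 2 above ZT14 replicate 2. Bnip3, a mitophagy receptor gene, was at 179 and 202 CPM against 128 to 140, but at 177 to 265 by day. Trib1, a pseudokinase gene, was at 62.5 and 53.0 CPM against 29.6 to 39.8, and Cdkn1a, the cell cycle inhibitor p21, at 0.966 and 0.779 against 0.209 to 0.473. Trib1 was already at 54.6 and 61.2 CPM at ZT10, overlapping ZT14. Each of the 4 calls was lost in at least 4 of the 6 fits without 1 night library (edgeR adjusted p up to 0.27, 0.197, 0.24 and 0.246). That of Cdkn1a was lost in 16 of the 19 alternatives that fitted it, among them every fit without 1 library, the night libraries alone, no filter and the replicate block.

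Of the genes that fell at ZT14, Bmf, Tcp11l2 and Erbb3 were called in every alternative and lay below all 10 other libraries. By log2 difference Saa1, Saa2 and Mup16, given below, fell further. Bmf, a BH3-only gene of apoptosis (chromosome 2, 118528757 to 118549687), was at 3.49 and 3.05 CPM at ZT14, then 14.7 and 13.6 at ZT18 and 9.87 and 13.6 at ZT22, and at 7.86 to 29.7 by day (log2 difference -1.98 ± 0.22 SE, edgeR adjusted p = 0.00331). Tcp11l2 was at 2.68 and 5.02 CPM against 10.9 to 13.8 at night and 18.2 to 30.9 by day (-1.66 ± 0.22, adjusted p = 0.00563). Erbb3, a neuregulin receptor gene chosen after its values were seen, was at 59.7 and 74.1 CPM against 141 to 153 at night and 158 to 272 by day (-1.13 ± 0.11, adjusted p = 0.0018). All 3 were also called lower at ZT14 than at ZT10 (log2 differences of -1.58, -2.41 and -1.32). The plot of falling genes has its lowest points at ZT14 in these 3 panels.

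Lpin2, a phosphatidate phosphatase of glycerolipid synthesis (chromosome 17, 71182560 to 71249817), was at 86.2 and 129 CPM at ZT14, then 256 and 280 at ZT18 and 200 and 276 at ZT22, and at 267 to 541 by day. It fell by 1.23 ± 0.22 on the log2 scale (edgeR adjusted p = 0.0227); AC126942.1, inside it on the same strand, also fell and may share reads with it. Rnf125, an E3 ubiquitin ligase gene, was at 19.5 and 40.1 CPM against 67.0 to 68.8, and Ypel2 at 8 and 12.3 against 17.4 to 34.4. Ip6k2, an inositol hexakisphosphate kinase gene, was at 5.69 and 6.81 CPM against 12.0 to 16.6. Ccng2, the cyclin G2 gene known as a FOXO target and chosen after its values were seen, was at 4.02 and 6.46 CPM against 8.93 to 10.8. In all of these genes the ZT14 libraries lay below all later night libraries, and in each the call was lost without ZT14 replicate 1 and without either ZT18 library, among others (adjusted p up to 0.182, 0.0955, 0.209, 0.232 and 0.266 in the order given).

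Of the insulin-repressed list, Igfbp1 and Pck1, both chosen after their values were seen, were low at ZT14 without passing the test, and G6pc was not low. Igfbp1, an insulin-repressed binding protein gene, was at 4.78 and 1.49 CPM at ZT14 and 5.84 to 21.2 in the later night, and Pck1, the gluconeogenic PEPCK, at 428 and 943 against 1066 to 2174. Both had ZT14 libraries below all 10 others, but the spread was wide (log2 differences of -2.26 ± 0.90 and -1.16 ± 0.42, edgeR adjusted p = 0.257 and 0.207). G6pc, glucose-6-phosphatase, was at 214 and 214 CPM against 188 to 273. Of the 17 genes of this list 1 was called, Trib1, which was higher. A positive difference was seen in 7, and the list median was -0.06. Both ZT14 libraries lay below all 4 later ones in 6 and above them in 3 (12.2% and 14.9% of all genes). Against ZT10, 2 were called lower, where 0.508% of all genes were. Of 21 clock genes 1 was called: Per3 was at 41.6 and 35.6 CPM against 51.3 to 55.7 (-0.49, adjusted p = 0.0315), a call lost in all 6 fits without 1 night library (up to 0.209).

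**Figure D3:**
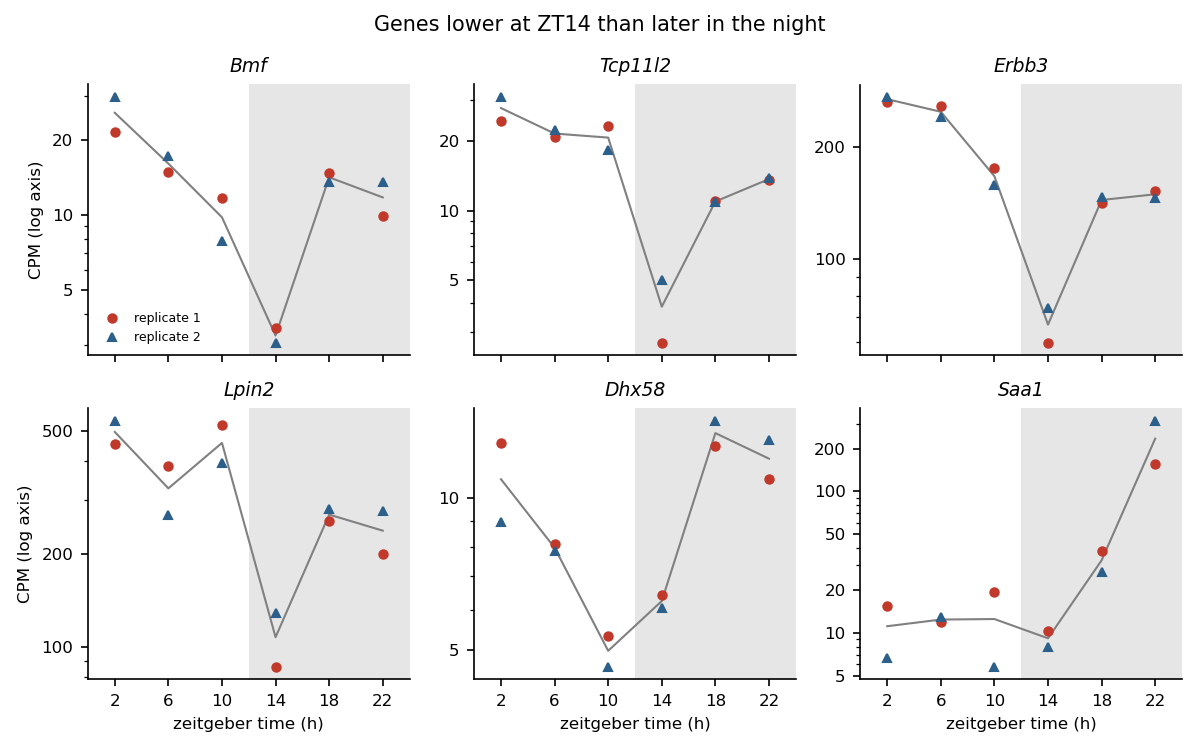
Level in CPM (log axis, a separate scale in each panel) against zeitgeber time for 6 genes called lower at ZT14; circles are replicate 1, triangles replicate 2, the line joins the 2-library means and the grey area is ZT12 to ZT24. Bmf, Tcp11l2, Erbb3 and Lpin2 have their lowest values at ZT14, whereas Dhx58 is lower at ZT10 and Saa1 is as low by day and highest at ZT22.

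A further group fell below the later night but not below the day. Slc41a2, a magnesium transporter gene, was at 43.1 and 51.1 CPM at ZT14 and 119 to 166 later, but at 32.5 to 72.8 by day (log2 difference -1.56, edgeR adjusted p = 0.0222). Slc3a1, a subunit of the cystine and dibasic amino acid transporter, was at 18.6 and 16.9 CPM against 31.9 to 61.1, with 15.4 to 25.6 by day (-1.34, adjusted p = 0.0246). These calls were lost in 5 and 4 fits without 1 night library (up to 0.174 and 0.172). The serum amyloid A genes of the acute phase had their highest values at ZT22. Saa1 was at 10.4 and 7.93 CPM at ZT14, then 38.0 and 27.0 at ZT18 and 155 and 316 at ZT22 (-3.26 ± 0.52, adjusted p = 0.0148), against 5.76 to 19.3 by day. Saa2, a near-identical neighbour whose reads may be shared, was at 6.04 and 3.41 CPM, then 14.2 and 7.59, then 95.8 and 185 (-3.06 ± 0.62, adjusted p = 0.0358). Both calls were lost when ZT18 and ZT22 were taken as 1 group, and without either ZT14 library or ZT18 replicate 1 (adjusted p up to 0.125 and 0.241). Of 23 acute-phase genes these 2 were called lower, where 0.356% of all genes were; 22 had a negative difference, and the median was -0.39. DESeq2 called 10 of them lower, the night libraries alone 5, and the later night as 1 group none. Over all genes these fits called 220, 178 and 70 lower. Between ZT18 and ZT22 the median was -0.51, with ZT22 higher. Mup16, of a family of near-identical urinary protein genes, was at 12.6 and 7.93 CPM against 27.8 to 63.5 and its call was lost in 11 alternatives (up to 0.286).

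Antiviral genes had lower values at ZT14 than in the later night, and a few passed the test. All 26 interferon-stimulated genes tested had a negative difference, with a median of -0.52. Both ZT14 libraries lay below all 4 later ones in 15, which 12.2% of all genes had. Of the 26, 3 were called lower, where 0.356% of all genes were. Dhx58, which encodes the RNA sensor LGP2, was at 6.44 and 6.07 CPM against 10.9 to 14.2 (log2 difference -1.01 ± 0.16, edgeR adjusted p = 0.0130). Xaf1, a pro-apoptotic interferon target, was at 2.79 and 2.15 CPM against 4.44 to 5.38 (-0.96, adjusted p = 0.0319), and Ddx58, which encodes RIG-I, at 27.7 and 27.6 against 39.1 to 41.8 (-0.53, adjusted p = 0.0465). Ddx60, an antiviral helicase gene named among the largest falls, was at 3.73 and 4.28 CPM against 7.38 to 13.4 (-1.42 ± 0.23, adjusted p = 0.0152). None of the 4 was called against ZT10 (adjusted p = 0.14 to 0.71), where Dhx58, Xaf1 and Ddx58 had slightly lower means than at ZT14 and Ddx60 a higher one. All of the calls were lost in 4 or more fits without 1 night library (adjusted p up to 0.0958, 0.214, 0.216 and 0.132). Lymphocyte markers moved in the same direction: none of the 12 had a positive difference and 8 had both ZT14 libraries below all later ones, with a median of -0.98. Kupffer cell markers had a median of -0.22 with no gene called. The part of immune cells in the interferon result was not tested. Fits of DESeq2 and of the night libraries alone called 9 and 8 interferon-stimulated genes. Over all genes these fits called 220 of 17142 and 178 of 16673 lower.

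Cholesterol synthesis genes had lower values at ZT14, without a call. Of 24 genes 23 had a negative difference, 14 had both ZT14 libraries below all later ones (12.2% of all genes had), and the median was -0.52. Against ZT10, which shares the ZT14 libraries, none was called and the median was 0.54, with ZT14 higher. Hmgcs1, an early enzyme of the pathway, was at 99.6 and 94.4 CPM at ZT14 against 199 to 273 (log2 difference -1.28 ± 0.53, edgeR adjusted p = 0.281). The day libraries ran from 60.1 to 330 CPM for Hmgcs1. A fit of the 6 night libraries alone called 13 of the 24 lower, and DESeq2 called 2. Over all genes these fits called 178 of 16673 and 220 of 17142 lower. In fatty acid synthesis none of 17 was called and the median was 0.02: Fasn, fatty acid synthase, was at 3923 and 1369 CPM at ZT14 and 1063 to 2149 later, so replicate 1 lay above the later night and replicate 2 inside it. In fatty acid oxidation and PPARα targets 27 of 33 had a positive difference, the median was 0.20 and none was called. Proteasome subunits (31 genes, median -0.08), aminoacyl-tRNA synthetases (20, 0.03), tubulins (11, 0.03), glycolysis and glycogen (16, 0.22), the urea cycle and amino acid catabolism (24, -0.01), bile acid genes (15, 0.13) and male growth-hormone-patterned genes (16, -0.32) held no called gene. The most abundant members of several of these lists overlapped between ZT14 and the later night. Cps1, the first enzyme of the urea cycle, was at 6345 and 5826 CPM against 5833 to 7167, and Slco1b2, a bile acid uptake transporter, at 972 and 1356 against 975 to 1158. Psmd2 and Psmd1, of the proteasome's regulatory particle, were at 155 and 171 CPM against 174 to 199.7 and at 110.1 and 129 against 134 to 147, in each case below the later night without passing (adjusted p = 0.611 and 0.572). Of 17 replication and cell cycle genes, 16 had a negative difference, and of 16 glucocorticoid-responsive genes 7 had a positive one; Cdkn1a was the single call in both lists.

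**Figure D4:**
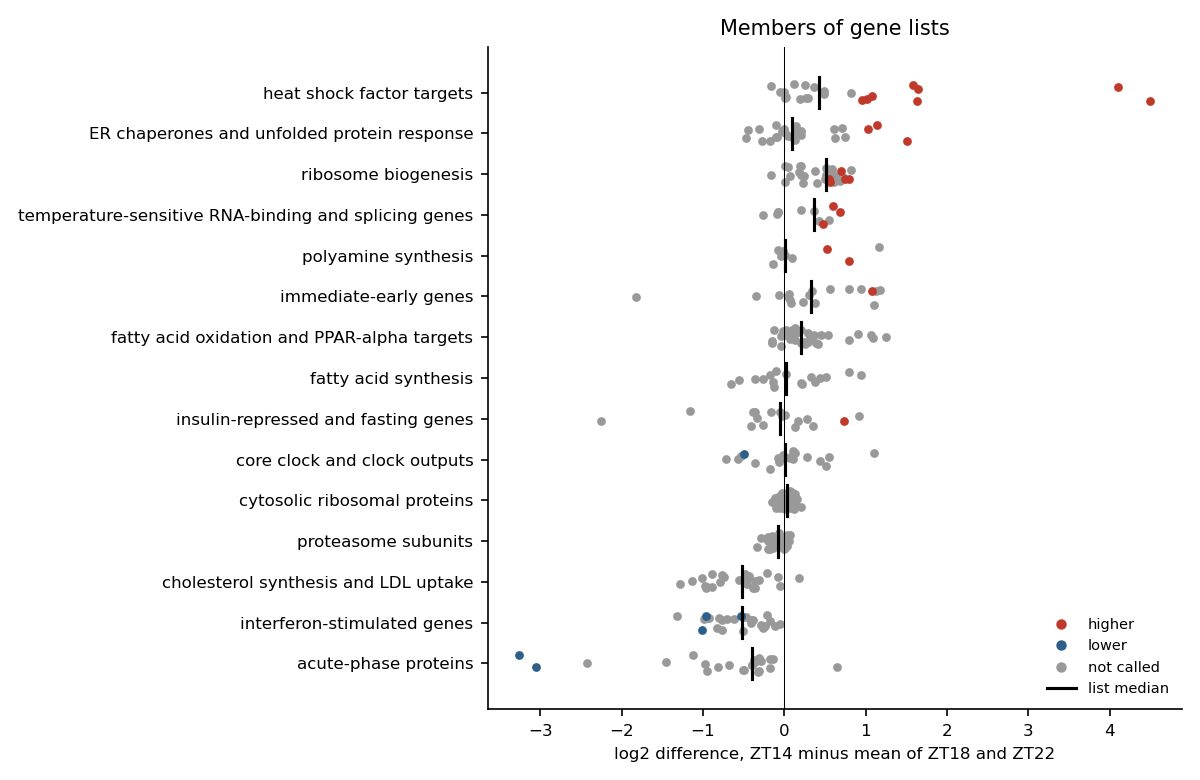
Each dot is a tested member of a gene list at its log2 difference of ZT14 minus the mean of ZT18 and ZT22; red dots were called higher, blue lower and grey not called, and black bars mark list medians. Heat shock factor targets spread up to 4.50 with a median of 0.43, ribosome biogenesis lies narrowly around 0.51, and the cholesterol and interferon lists lie around -0.52.

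Within the later night the test separated no gene. Between ZT18 and ZT22 no gene was called (0% of those tested; edgeR, smallest adjusted p = 0.436), while 845 genes had an unadjusted p under 0.05; DESeq2 called 19 and limma-voom none. Without ZT22 replicate 2 the test called 26 genes and without ZT22 replicate 1 it called 1. The first step alone, ZT14 minus ZT18, gave 92 genes (0.537%), 74 higher and 18 lower at ZT14. Dropping ZT14 replicate 1 brought the count to 3 and dropping replicate 2 to 21. The count was 0 when either ZT18 library was dropped, 46 when either ZT22 library was, and 60 when ZT02 replicate 1 was. For the 229 genes higher at ZT14 the median difference between ZT18 and ZT22 was 0.00, with 110 higher at ZT18 and 119 at ZT22. For the 61 lower genes it was also 0.00, with 30 and 31. Among single genes, none of them called, the log2 difference of ZT18 minus ZT22 was 1.47 for Creld2, 0.95 for Hsph1 and -2.85 for Saa1 (edgeR adjusted p = 0.538, 0.987 and 0.538).

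Set beside the day, the called genes divided by where the day level lay. Both ZT14 libraries were above the other 10 in 172 of the 229 genes, which 5.19% of all tested genes had. They were below them in 39 of the 61, which 3.33% had. The selection fixed much of this, since 227 of the 229 and all 61 already lay beyond the 4 later libraries. Of all tested genes, both ZT14 libraries lay above the later night in 2548 and above all 10 others in 890. The counts below were 2090 and 571. The day mean lay between ZT14 and the later night in 135 of the genes higher at ZT14, at or below the later night in 92 and at or above ZT14 in 2. Among the 61 lower genes, the day mean lay between in 33, at or above the later night in 27 and at or below ZT14 in 1. The separate comparison of ZT14 with ZT10, which shares the ZT14 libraries, called 124 genes higher (0.723%) and 87 lower (0.508%); of these, 53 and 17 were among the 229 and the 61, and none was called in the opposite direction. That comparison gave 3 genes when ZT14 replicate 1 was dropped and 391 when replicate 2 was. It gave 11 when ZT10 replicate 1 was dropped, 58 for either ZT18 library and 103 for either ZT22 library. The map of list means by library shows ZT14 apart from both neighbours for the heat shock list, at 0.97 and 0.92.

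**Figure D5:**
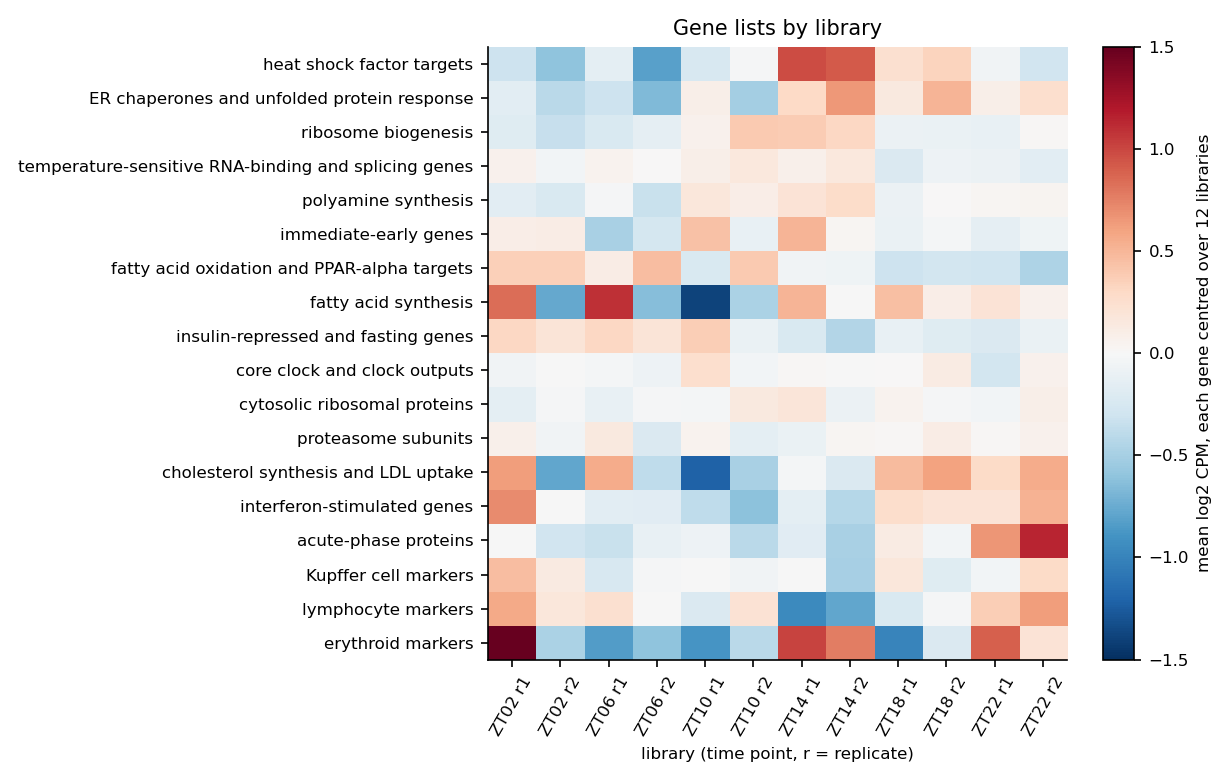
Rows are gene lists and columns the 12 libraries; colour is the mean over the list of log2 CPM, each gene centred over the 12 libraries. The heat shock row is at 0.97 and 0.92 in the ZT14 libraries and 0.24 and 0.33 at ZT18, the acute-phase row is highest at 1.14 in ZT22 replicate 2, and the lymphocyte row is lowest at -0.95 and -0.78 at ZT14.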

How the data were processed

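Liver total RNA was depleted of rRNA and made into stranded libraries, per the labels' protocols. The unit is the count: the authors' table holds whole-number exon counts for each gene, deposited unnormalized. The submitters' processing notes name STAR 2.4.0i and mm10. No source used here states how reads were counted, whether strand was used, or which gene models were taken. Of the gene identifiers, 22054 were found in GENCODE M21 and 564 were not.

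The fit used edgeR 4.0.16 under R 4.3.3. Genes were filtered with filterByExpr over the 6 times (minimum count 10, minimum total 15), libraries were scaled with TMM, and glmQLFit took all 12 libraries as 6 groups of 2 that share 1 estimate of the spread. glmQLFTest then gave ZT14 minus the mean of ZT18 and ZT22, ZT14 minus ZT18, ZT18 minus ZT22 and ZT14 minus ZT10, with Benjamini-Hochberg adjustment over all genes and a threshold of 0.05. The SE is the log2 difference divided by the root of F. CPM use TMM-scaled library sizes, and a count of 0 allows up to 0.0651 to 0.0864 CPM, depending on the library (3 counts, counting error only). No library repeats another: between the 2 libraries of a time, chi-square per degree of freedom was 15.5 to 92.2.

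The members and the gene lists were chosen with earlier results of these data known. The named genes are the 12 that rose most and the 12 that fell most, by log2 difference, with a night mean of 5 CPM or more and both ZT14 libraries beyond all 4 later ones. For each pathway list they include up to 4 called members in order of adjusted p, or the 2 with the highest level if there was no call, and in addition Cry1 and Cry2. Genes known only by a clone or model name were passed over. Other genes given with values, such as the HSP90 genes, Hspa1a, Dnaja1, Dnajb4, Gnl3, Hspa5, Manf, Fos, Cirbp, Igfbp1, Pck1, G6pc, Hmgcs1 and the genes called in every fit, were chosen after their values were seen. Lists are described by counts and medians only, and some members are not reported here. The alternatives replaced edgeR by DESeq2 1.42.0 or limma-voom (limma 3.58.1), TMM by RLE or by totals, or the filter by none or by a mean of 5 CPM. They also took the night libraries alone, the later night as 1 group or the replicate block, and left out each library in turn. The fits were checked on simulated counts.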

Additional observations from a re-analysis of the deposited data

How the results depend on the processing

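Leaving out 1 of the 12 libraries moved the count of genes higher at ZT14 between 44 and 255, of genes lower between 4 and 86, of genes called between ZT14 and ZT18 between 0 and 132, between ZT18 and ZT22 between 0 and 26, and between ZT14 and ZT10 between 3 and 391. DESeq2 called 373 higher and 220 lower, 375 between ZT14 and ZT18, 19 between ZT18 and ZT22 and 717 between ZT14 and ZT10. With genes of at least 5 CPM only, 99 were lower and 337 differed between ZT14 and ZT10; with the night libraries alone, 178 were lower and 255 differed between ZT14 and ZT18. The other settings stayed within 1.5 times of the reported counts: 169 to 329 higher, with TMM replaced by total counts giving 209 higher and 62 lower. Differences of replicate 1 minus replicate 2 correlated over 0.1 in 5 of 15 pairs of time points (range -0.22 to 0.50). Among the night times the correlation was 0.26 for ZT14 with ZT18, -0.16 for ZT14 with ZT22 and -0.09 for ZT18 with ZT22. These values cannot tell whether libraries of 1 replicate number belong together. The replicate block called 201 higher and 62 lower, 185 and 53 of them shared with the reported calls, and 73, 0 and 215 in the other comparisons. Of 71 called genes followed one by one, 14 kept the call in every setting, 57 lost it in at least 1 fit without a library, and none changed sign; of 54 genes not called, 10 were called in at least 1 setting, Dbp in 8 and Manf in 4. The cause of each loss was not tested. The 71 included genes chosen after their values were seen, so their share of kept calls does not stand for all 290 called genes, whose counts are given above. The lack of sign changes was largely fixed by the selection, as stated there. Counts were simulated for ZT14 minus the later night (16873 genes) as independent libraries, with the spread that the same model had estimated. On these the test recovered 29.9% of 1.5-fold, 80.6% of 2-fold and 98.5% of 4-fold changes, and 6 of its 145 calls were false. Even where those assumptions hold, many changes below 2-fold would be missed.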

Other observations

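The genes below were chosen after their values were seen, and no test of a group was made. They include genes of protein glycosylation and Golgi traffic called higher at ZT14; the listed genes of the translocon, glycosylation and COPII coat held no call among 35. Mgat2, an N-glycan branching enzyme of the Golgi, was at 111 and 110 CPM at ZT14, 48.8 to 57.2 in the later night and 39.9 to 72.0 by day (log2 difference 1.05 ± 0.09 SE, edgeR adjusted p = 0.0018). Gmppb, which makes GDP-mannose, was at 50.2 and 41.5 CPM against 17.4 to 24.6, and Alg2, a mannosyltransferase of the lipid-linked precursor, at 27.2 and 26.6 against 11.3 to 16.3. B4galt5, a galactosyltransferase gene, was at 71.9 and 85.5 CPM against 32.2 to 43.6. Gfpt1 and Uap1, the first and the last enzyme of UDP-GlcNAc synthesis, had log2 differences of 0.87 and 0.66 (adjusted p = 0.026 and 0.0363). Of traffic genes, the Golgi SNARE gene Bet1l was at 33.1 and 32.1 CPM against 15 to 17.5, and the COPI regulator Arfgap3 at 24.8 and 21.4 against 7.26 to 13.3. Slc20a1, a sodium-phosphate cotransporter gene, was at 99.95 and 92.8 CPM against 40.9 to 48.2 and 36.2 to 57.7 by day. Mgat2, Alg2, B4galt5, Bet1l and Slc20a1 were called in every alternative; Gmppb, Gfpt1, Uap1 and Arfgap3 lost the call in 3, 5, 6 and 1 fits without 1 library (adjusted p up to 0.111, 0.175, 0.215 and 0.0657).

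Genes named Zfp and a number, as many mouse zinc finger genes are, were frequent among the rises: 17 of 336 tested were called higher (5.06%, against 1.34% of all genes) and none lower, 263 had a positive difference, and their median log2 difference was 0.19. Their median level was 5.63 CPM, against 8.31 over all genes. Of genes outside the interferon list, Irf9, a transcription factor of interferon signalling, was at 26.0 and 21.9 CPM against 31.9 to 39.8, Rnf213 at 202 and 183 against 264 to 303, and Pml at 12.6 and 12.6 against 17.3 to 20.6 (edgeR adjusted p = 0.0282, 0.0273 and 0.0207). Stat3, the transcription factor downstream of interleukin 6, was at 82.7 and 82.7 CPM against 134 to 162 (log2 difference -0.82, edgeR adjusted p = 0.035). Leaving out 1 library ended the calls of Irf9 in 5 fits, Rnf213 in 6, Pml in 5 and Stat3 in 8 (adjusted p up to 0.202, 0.181, 0.129 and 0.198).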
